A study of Homo sapiens with 14 samples.

Results

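The 40 genes described here encode translation factors and ribosome-associated proteins, namely elongation factors, subunits of the initiation factors eIF1 to eIF6, poly(A)-binding proteins, release and recycling factors, and the ribosome-associated proteins RACK1, NACA, BTF3 and TPT1. Their rule uses gene names alone, though the list was drawn up with earlier results of these data known. Of the 40, 39 had at least 1 transcript in the deposited profiles, among 4257 coding genes in all. EIF4G1, the scaffold of the cap-binding complex, had no transcript in them and was not analysed here.

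RNA structure was probed in K562, an established human erythroleukemia cell line. In icSHAPE, 100 mM NAI-N3 acylated flexible 2′-hydroxyls during 5 min, in intact cells (3 libraries, in vivo) or in refolded RNA (2 libraries, in vitro), with 3 DMSO libraries as controls. In icLASER, NAz-N3 from a 1 M stock labelled solvent-accessible purines at C8 under 10 min of UV light, in cells (2 libraries) or in refolded RNA (2 libraries), with 2 libraries that received no UV light. All 14 libraries came from the same line, and they were pooled by the authors into 4 profiles, 1 for each reagent and condition. Each profile gives an RPKM value per transcript and a score from 0 to 1 per nucleotide, where a higher score means more labelling over the control. With 1 profile per condition there was no replicate, so no difference below carries a test, an SD or a p-value, and values are set beside the same values in the other coding genes. The read depth behind a score is unknown.

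The K562 identity was checked on erythroid markers, of which 8 of 10 were in a profile, led by the fetal globin HBG1 at a mean RPKM of 1936. Of 6 markers of other cell types, 5 were in none and EPCAM was listed at a mean RPKM of 23.8. The profiles held between 12256 and 16648 transcripts, and the lowest RPKM in them was 5.01.

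Translation begins when eIF4F binds the cap and recruits the small ribosomal subunit, which carries eIF3 and the initiator tRNA and scans the 5′ UTR to the start codon. Elongation factors then deliver aminoacyl-tRNAs and move the ribosome, and release and recycling factors free it at the stop codon. Many mRNAs of this machinery begin with a terminal oligopyrimidine (TOP) tract, through which growth signals regulate their own translation. PABPC1, which binds poly(A) tails, also has an adenine-rich stretch in its own 5′ UTR that is known as a site of autoregulation.

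The sequences printed here carry the comparisons described further on, and all are from the GRCh38 reference in the 5′ to 3′ direction. The start codon regions of the 3 most abundant members are shown, with the start codon in capitals, since the nucleotide just before it had the highest mean icSHAPE score around the start codon.

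EEF1A1 (chr6:73520015-73520038, minus strand): ctaaaagccaaaATGggaaaggaa

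EEF2 (chr19:3984342-3985392, minus strand, spanning an intron): ccatccgccaccATGgtgaacttc

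EEF1G (chr11:62573831-62573854, minus strand): tgcggaatcaccATGgcggctggg

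The adenine-rich stretch of the PABPC4 5′ UTR is shown with each A in capitals, for comparison with the stretch in PABPC1.

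PABPC4 (chr1:39576704-39576733, minus strand): AAAAAAAgAgAAAAAgAtAAAAAAAAtctg

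The coding-region stretches with the largest falls in both reagents are shown with capitals at the nucleotides whose score was lower in vivo by at least 0.2 with each reagent.

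EIF3C (chr16:28714000-28714029, plus strand, exon 4 of its transcript): GgAAaAGcAtAtgGgaaGGCCaAaAGcATT

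GSPT1 (chr16:11896714-11896743, minus strand, exon 2): aGcaCaAAGaagaaaTaagTgaagcagAgC

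PABPC4 (chr1:39568893-39568922, minus strand, exon 6): tggaAAAgAaATaagtGgtAaaatCaTATt

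The translation factor mRNAs were more abundant than most. Their median mean RPKM was 48.7 (39 genes), against 10.7 in 4218 other coding genes. EEF1A1, which carries aminoacyl-tRNA to the ribosome, was the highest at a mean of 1132. Its RPKM was 1086 in vitro and 1279 in vivo with icSHAPE, and 841 in vitro and 1323 in vivo with icLASER. EEF2, the translocation factor, followed with 573 and 848 (icSHAPE, in vitro and in vivo) and 906 and 1063 (icLASER). EEF1G, a subunit of the exchange complex that recharges EEF1A1, had 329.8 and 405 with icSHAPE and 330.2 and 485 with icLASER. PABPC1 had a mean of 245 and TPT1, which binds the elongation machinery, a mean of 197. The lowest members were EIF4E, the cap-binding subunit, at 8.32, EIF5, the GTPase-activating protein of eIF2, at 9.42, and GSPT1, the release factor eRF3a, at 10.6. In their own role groups EIF3I, an eIF3 subunit, led eIF3 with 115, EIF1, which guards start codon choice, led the initiator tRNA group with 94.3, and ABCE1, which splits the ribosome after termination, led the termination group with 22.0. By role, elongation factors had the highest median RPKM (282, 6 genes), followed by the ribosome-associated proteins (157, 4 genes), eIF3 (47.1, 12 genes), the cap, helicase and poly(A) group (35.3, 8 genes), the initiator tRNA group (20.7, 5 genes) and the termination, recycling and subunit joining group (14.8, 4 genes). The 13 members listed as TOP mRNAs had a median of 126 and the other 26 members 32.5.

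**Figure D1:**
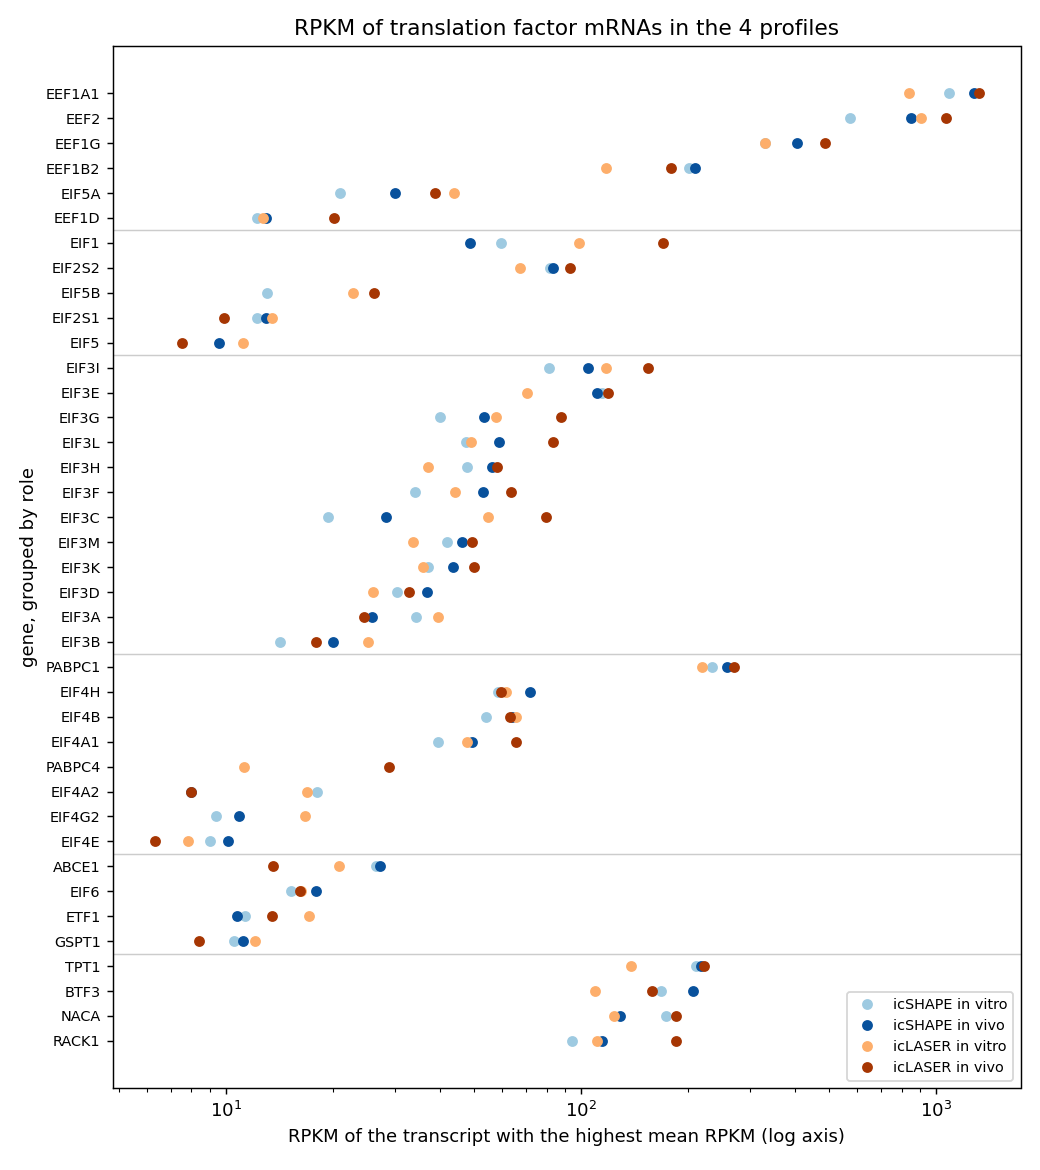
RPKM (log axis) of the transcript with the highest mean RPKM of each of 39 translation factor genes, grouped by role, with 1 point for each profile. EEF1A1 and EEF2 lie farthest to the right, and the release and recycling factors lie under an RPKM of 30 in every profile.

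RPKM seldom differed by 2-fold between conditions, though the members' median rose more than that of the other coding genes, above all with icLASER. On the log2(RPKM + 1) scale, which understates the change of low values, the median in vivo minus in vitro difference of the members was 0.22 with icSHAPE (36 genes) and 0.46 with icLASER (38 genes). The medians of the other coding genes were 0.09 (2420 genes) and 0.07 (2996 genes). No member was higher in vivo by 2-fold with icSHAPE, where the share of the other coding genes was 0.0826%. The 1 lower was a retained intron transcript of EIF4A2, a helicase gene, beside 0.785% of the other coding genes. It had 18.0 in vitro and 8.01 in vivo, a log2 difference of −1.08. With icLASER, the shares in the other coding genes were 0.367% higher and 0.634% lower by 2-fold. PABPC4, a cytoplasmic poly(A)-binding protein, was higher in vivo with icLASER (11.2 in vitro and 28.8 in vivo, a log2 difference of 1.28). No member was lower past the limit, but the same EIF4A2 transcript was just inside it (17.0 in vitro and 7.99 in vivo, a log2 difference of −0.998 with the pseudocount). This retained intron transcript was thus low in vivo with both reagents. The RPKM of a coding EIF4A2 transcript by condition is not given here. The icLASER difference moved with transcript length: the 22 members under 1000 nt had a median of 0.56 and the 10 over 2000 nt a median of −0.05. The other coding genes showed the same order, with 0.28 under 1000 nt (1045 genes) and −0.08 over 2000 nt (1053 genes). From 1000 to 2000 nt the medians were 0.36 in 6 members and 0.08 in 898 other coding genes. The part that length plays in the members' higher median was not tested.

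RPKM was read from whichever transcript was highest, and for 12 of 39 members that was a transcript not annotated as protein coding. Among these were retained intron forms of EEF1A1, EIF4A2 and EIF5 and a nonsense-mediated decay form of EIF4E. Reads of isoforms and of near-identical copies can be shared among transcripts, so values of EEF1A1, EIF3C and its copy EIF3CL, EIF4A1 and EIF4A2, PABPC1 and PABPC3, and NACA are uncertain in this respect. Regions were read from coding transcripts whose length equalled that in the annotation, so that positions could be assigned. This left 30 members, compared with 1171 other coding genes. Matching by length does not separate shared reads. In the EEF1A1 transcript used, 13.5% of coding positions scored 0 with icSHAPE in vitro, against 84.7% in its 5′ UTR and 82.8% in its 3′ UTR. For 20 of the 30 the coding region was shorter than the longest one of the gene in the profiles. It began inside a longer one with the same end by 414 nt in GSPT1, 135 in PABPC1, 132 in BTF3, 99 in ETF1, 36 in TPT1 and 5826 in NACA. What is read as their 5′ UTR may thus be coding in another transcript. Of the members outside these 30, EEF1G, EEF2, EIF2S2, EIF3A, EIF3I and ABCE1 had transcripts of another length. These could be placed on their sequence from the pattern of scores, a step added after the data were seen. EIF2S1, EIF5 and EIF5B could be read in icLASER alone.

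The most marked pattern was in icLASER. In cells the 5′ UTRs of translation factor mRNAs were less labelled, and their 3′ UTRs more labelled, than in refolded RNA. The median 5′ UTR score was 0.322 in vitro and 0.214 in vivo (27 members), with a median difference of −0.108. In 1007 other coding genes the median was 0.246 in vitro and 0.194 in vivo, with a median difference of −0.042. These means cover all bases. With A and G alone, the bases that NAz-N3 labels, the gap between these median differences was −0.022 in place of −0.065. In vivo values were lower by at least 0.05 in 21 of 27 members (77.8%), beside 45.8% of the other coding genes. They were higher by that much in 2 members (7.41%), beside 8.14%. In the 3′ UTR, the median rose from 0.092 to 0.162 (26 members) with a median difference of 0.076, against 0.056 in 1087 other coding genes. There 18 members (69.2%) were higher by at least 0.05 and none was lower, beside 53.9% higher and 0.828% lower in the other coding genes. With the median over positions in place of the mean, 8 members were higher and the median difference was 0.036. This was 0.0255 above the median of the other coding genes, whose share at that setting is not given. Of the 188 other coding genes with a mean RPKM of at least 50, 69.1% were higher, a share like that of the members. In the 5′ UTRs of 191 such genes 49.2% were lower. With the transcripts placed from their scores included, 24 of 33 members (72.7%) were lower in the 5′ UTR, beside 48.4% of 1941 other coding genes, and 23 of 32 (71.9%) were higher in the 3′ UTR, beside 52.9% of 2109.

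**Figure D2:**
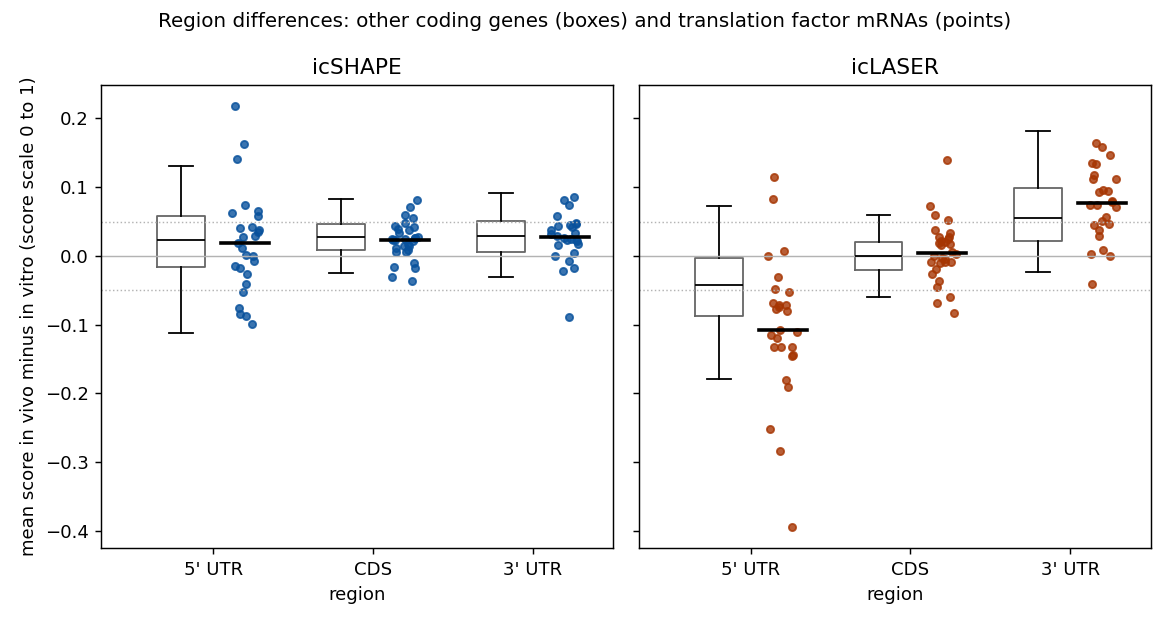
Mean score in vivo minus in vitro for each region and reagent. Boxes give the median, quartiles and 5th to 95th percentiles of the other coding genes, points are the translation factor mRNAs, thick bars their medians and dotted lines the limit of 0.05. The icLASER points lie mostly below 0 in the 5′ UTR and above 0 in the 3′ UTR.

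All 4 elongation factor mRNAs compared were lower by at least 0.05 in the 5′ UTR with icLASER, beside 45.8% of the other coding genes. Of those genes, 75.9% were below 0 by any amount. EEF1B2, a nucleotide exchange subunit, fell by 0.252, from 0.366 in vitro to 0.114 in vivo over 115 nucleotides. EEF1D, another exchange subunit, had 0.267 and 0.121, EIF5A, which relieves stalling at proline stretches, had 0.347 and 0.214, and EEF1A1 had 0.256 and 0.124. The EEF1A1 value came from an isoform with a leader of 992 nt in which 61.9% of positions scored 0 in vitro. In its usual 63 nt leader, placed from the scores, the values were 0.102 and 0.083, a difference of −0.019. Placed in the same way, EEF1G had the largest fall among elongation factors, from 0.608 to 0.165 over 49 nucleotides, and EEF2 went from 0.317 to 0.139.

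Among eIF3 subunits, which form the platform that holds the mRNA on the small subunit, 8 of 9 were lower by at least 0.05, beside the 45.8% of other coding genes. EIF3L was the lowest, with 0.541 in vitro and 0.256 in vivo over 27 nucleotides. EIF3E had 0.376 and 0.185, EIF3C 0.339 and 0.219, and EIF3G, an RNA-binding subunit, 0.322 and 0.214. The exception, EIF3H, had 58 scored positions in a leader of 767 nt, all at 0 in both conditions. The call of EIF3K, a small subunit (0.382 and 0.304), was lost in its most abundant transcript, placed from its scores, with 0.166 and 0.178. EIF3A, the largest subunit, was placed from its scores and went from 0.357 to 0.149.

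In the cap, helicase and poly(A) group, 4 of 6 were lower by at least 0.05, beside the same 45.8%. EIF4A2 had 0.421 in vitro and 0.240 in vivo, EIF4H, a cofactor of the eIF4A helicase, 0.385 and 0.304, and EIF4B, another such cofactor, 0.346 and 0.272. PABPC4 was the highest member of all, with 0.136 in vitro and 0.251 in vivo over 787 nucleotides, and PABPC1 had nearly equal means of 0.242 and 0.249.

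The 3 termination and joining factors compared were all lower by at least 0.05, beside the same 45.8%. GSPT1 fell by 0.395, from 0.664 to 0.269, in a leader with 21 scored nucleotides, and 61.9% of these were at 0 in vivo against 4.76% in vitro. The coding region of this GSPT1 transcript began 414 nt inside that of a longer form. EIF6, which keeps the large subunit apart from the small one, had 0.411 and 0.267, and ETF1, the release factor that reads the stop codon, had 0.221 and 0.151. ABCE1 was placed from its scores and went from 0.325 to 0.148.

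Among ribosome-associated proteins, RACK1, a scaffold on the small subunit, had 0.288 and 0.177, and BTF3, the beta subunit of the nascent chain complex, had 0.273 and 0.141. TPT1 (0.255 and 0.207) and NACA, the alpha subunit of that complex (0.154 and 0.123), stayed within the limit. EIF1 went the other way, from 0.121 in vitro to 0.203 in vivo. EIF5B, which joins the subunits, was also higher in vivo in icLASER, with 0.261 and 0.399 over 178 nucleotides, and stands outside the counts because it was not in all 4 profiles.

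The fall was present among members listed as TOP mRNAs and among the other members. TOP mRNAs were listed by gene name from general knowledge, and the transcripts used were not checked for the tract. The 10 TOP mRNAs compared had a median 5′ UTR difference of −0.092 in icLASER, with 7 lower by the limit, and the other 17 members a median of −0.108, with 14 lower, both beside 45.8% of the other coding genes. In the coding region the median icLASER difference was 0.021 in the 10 TOP mRNAs and −0.009 in the other 20 members.

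The icLASER fall varied along the leader. The profiles usually had no score in the first 6 and last 30 nucleotides of a transcript. From nucleotide 7 to 30, the members had a median of 0.415 in vitro and 0.235 in vivo (21 genes), and the other coding genes 0.323 and 0.241 (846 genes). From nucleotide 31 to 60, the median differences were −0.036 in members (13 genes) and −0.042 in the others (762 genes), and from 61 to 100 they were −0.087 (10 genes) and −0.032 (593 genes). Members had shorter leaders, with a median of 83 nt against 118 nt. The median share of 5′ UTR positions at a score of 0 rose in icLASER from 35.9% to 42.9% in members and from 44.6% to 52.8% in the others. How much leader length and positions at 0 contribute was not tested.

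The result rested on the mean of positions. With the median over positions in place of the mean, the median difference of the members was 0.000. The gap to the other coding genes was also 0.000, and 7 members were lower by the limit. With at least 50 scored positions, 17 members remained and 11 of them were lower. The gap between the medians of members and other genes was then −0.027, against −0.065 in the main comparison. With A and G alone, 18 members had a median difference of −0.095 and 13 of them were lower, while the gap shrank to −0.022. That setting takes each score as that of its own nucleotide. The shares of the other coding genes at these settings are not given, so these counts have no background beside them.

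In the 3′ UTR, the largest icLASER rises were in EIF4A1, the cap-complex helicase (0.103 in vitro and 0.268 in vivo), EIF3B, an eIF3 scaffold subunit (0.035 and 0.193), and EIF3C (0.014 and 0.160). EIF3D, an eIF3 subunit that can itself bind caps, went from 0.055 to 0.189, and EEF1D from 0.061 to 0.178. The 3 most abundant members, placed from their scores, also rose. EEF1G had 0.027 in vitro and 0.301 in vivo over 48 nucleotides, EEF1A1 0.087 and 0.311 over 265, and EEF2 rose by 0.148 to 0.248 over 468. Of the 26 members compared, EIF1 alone (3.85%) was below 0, with 0.170 and 0.129. The share below 0 was 12.3% of the other coding genes and 5.85% of those with a mean RPKM of at least 50. The 3 members read in icLASER alone were also below 0, EIF2S1 by −0.022, EIF5 by −0.028 and EIF5B by −0.032. EIF4B (0.118 and 0.121) and EIF3E (0.026 in both, with 97.4% of positions at 0) did not differ by the limit. In another EIF3E transcript, placed from its scores, the 3′ UTR had 0.218 in vitro and 0.335 in vivo, so the EIF3E value depended on the isoform.

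In the coding region, the icLASER difference was centered near 0, with a median of 0.004 in 30 members and of −0.001 in the others. It was higher by the limit in 4 members, beside 8.11% of the other coding genes, and lower in 3, beside 7.43%. The higher ones were EIF3E (0.108 in vitro and 0.248 in vivo, and 0.171 and 0.220 in its placed transcript), EEF1A1 (0.085 and 0.157), BTF3 (0.181 and 0.240) and RACK1 (0.103 and 0.155). The lower ones were PABPC4 (0.194 and 0.111), EIF4G2, an eIF4G relative (0.215 and 0.147), and ETF1 (0.228 and 0.169). Across the other coding genes this difference rose with log2 RPKM (Spearman's rho 0.27 over 1171 genes, a description across genes of the same profiles), whereas in the 5′ UTR rho was 0.01 (1007 genes).

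**Figure D3:**
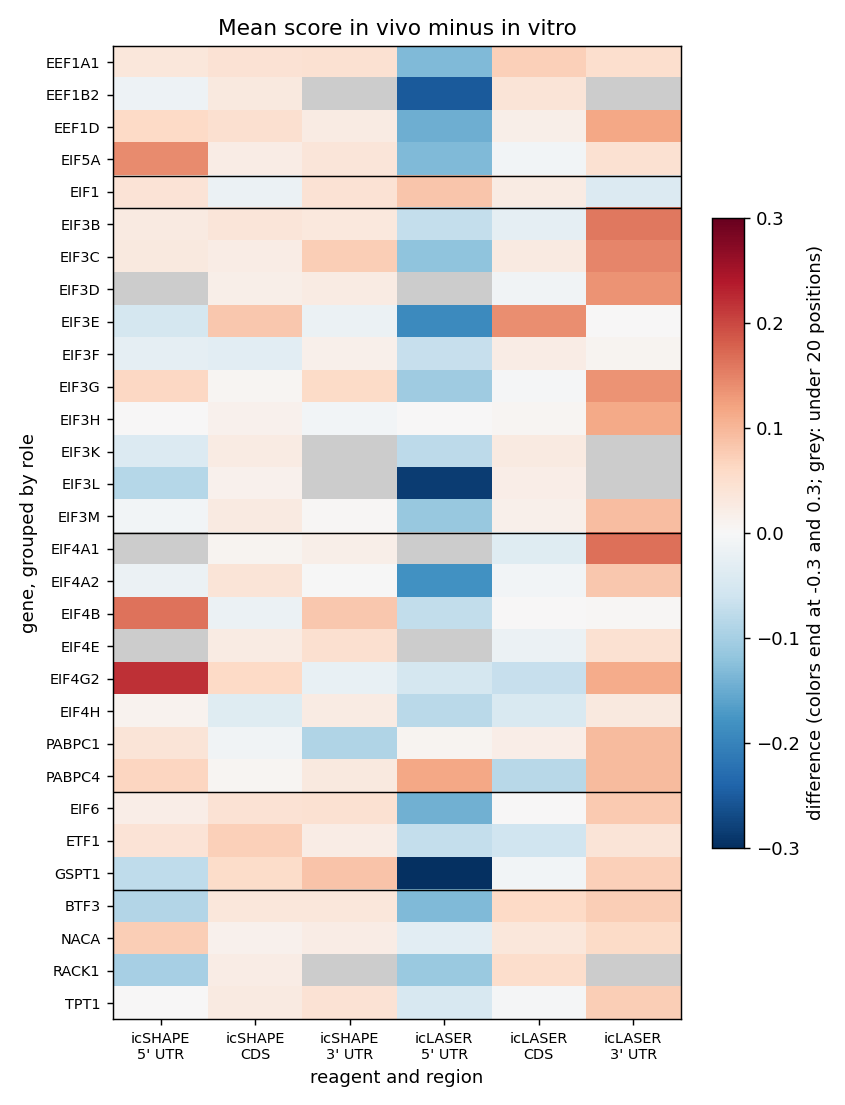
In vivo minus in vitro difference of the mean score for the 30 members compared by region, with a column for each reagent and region and horizontal lines between role groups. Blue marks lower and red higher scores in cells, grey regions with under 20 scored positions. The icLASER 5′ UTR column is mostly blue and the icLASER 3′ UTR column mostly red.

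On the deposited scale, icSHAPE gave no such contrast between regions. The median differences of the members were 0.019 in the 5′ UTR, 0.024 in the coding region and 0.027 in the 3′ UTR, beside 0.023, 0.028 and 0.029 in the other coding genes. In the 5′ UTR 7 of 27 members were higher by the limit, beside 30.4% of the others, and 5 were lower, beside 13.4%. The highest was EIF4G2, with 0.079 in vitro and 0.297 in vivo over 76 scored positions of its leader, where 93.9% of positions were at 0 in vitro. EIF4B had 0.268 and 0.431, and EIF5A 0.048 and 0.189 with 95.2% of positions at 0 in vitro. The lowest were RACK1 (0.340 and 0.241), BTF3 (0.341 and 0.254) and EIF3L (0.247 and 0.163).

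In the coding region 4 of 30 members were higher by the limit with icSHAPE, beside 21.1% of the others, and none was lower, beside 2.13%. EIF3E (0.187 and 0.269, but 0.193 and 0.207 in its placed transcript), ETF1 (0.180 and 0.252) and EIF4G2 (0.160 and 0.219) were the highest. EIF4H (0.265 and 0.228), EIF3F (0.370 and 0.339) and EIF4B (0.190 and 0.172) were the lowest. In the 3′ UTR 4 of 26 members were higher, beside 25.7%, and 1 was lower, beside 2.85%. GSPT1 (0.084 and 0.170), EIF4B (0.111 and 0.193) and EIF3C (0.030 and 0.104) were the highest. PABPC1 was the lowest, with 0.188 in vitro and 0.099 in vivo, and it was at the same time higher in icLASER, with 0.208 and 0.302. EIF4G2 (0.111 and 0.089) and EIF3E (0.030 and 0.012) followed. Opposite directions of the reagents in the 3′ UTR were also present in the placed transcripts of EEF1A1, with 0.192 and 0.135 in icSHAPE, and of EIF3E, with 0.215 and 0.141, while icLASER rose in both. The whole icSHAPE profile had a mean score of 0.141 in vitro and 0.167 in vivo. When each profile was divided by its own mean, the median icSHAPE differences of the 5′ UTR and the coding region turned to −0.026 and −0.008. That of the 3′ UTR stayed above 0, at 0.015. The gaps to the other coding genes were then −0.017 in the 5′ UTR and 0.007 in the 3′ UTR. The direction of these small values, and whether icSHAPE differs between the UTRs, thus depends on the scale.

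Over whole transcripts, differences past the limit were rare. With icSHAPE 1 of 30 members was higher, beside 9.82% of the other coding genes, and none was lower. With icLASER none was higher, beside 1.71%, and none was lower, beside 0.598%.

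Few members moved past the limit with both reagents. In the 5′ UTR EIF3E, EIF3L, RACK1, BTF3 and GSPT1 were lower in both, 5 of 27 members, beside 6.77% of 1004 other coding genes. The call of EIF3E was lost in its more abundant placed transcript, where icSHAPE had 0.249 and 0.278. PABPC4 was higher in both, beside 2.19%. When each profile was divided by its own mean the count of members lower in both was 10. The share of the other coding genes on that scale is not given. In the coding region EIF3E was higher in both, beside 1.96%, and none was lower, beside 0.0854%. In the 3′ UTR EIF3C, EIF3G and GSPT1 were higher in both, 3 of 26 members, beside 14.4%. The 5′ UTR differences had the same sign in 13 of 27 members (48.1%), beside 39.7% of the other coding genes. In another 13 (48.1%) icSHAPE was higher while icLASER was lower, near the 49.7% of the other coding genes.

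The adenine-rich stretch of the PABPC1 5′ UTR was an exception within its own leader. The 60 nt with the most A were located from sequence alone, on chromosome 8, at nucleotides 72 to 131 of a transcript with a leader of 363 nt, and held 40 A. In this window icLASER averaged 0.710 in refolded RNA and 0.389 in cells, so it fell by 0.321. Scores fell at 51 of the 60 nucleotides and rose at 2, and the number of nucleotides scoring at least 0.5 went from 44 to 18. Of the 2306 windows of 60 nt in the same transcript, 0.26% had a lower difference. The rest of the leader went the other way, from 0.147 to 0.221 over 297 nucleotides, and the mean over the whole leader hardly differed. With icSHAPE the same 60 nt had 0.256 in vitro and 0.264 in vivo, with 30 nucleotides lower and 25 higher.

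Within the window, icLASER scores fell at adenines, from 0.662 to 0.334, and at the other bases, from 0.806 to 0.498. This split takes each score as that of its own nucleotide, and a shift by 1 nucleotide was not tried for it. The fall was also present in the most abundant PABPC1 transcript with a full coding region, placed from its scores, where the window had 0.707 and 0.401. With a window of 40 nt the difference was −0.307, and with the median over positions it was −0.313.

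Other adenine-rich stretches did not share this fall. Among the transcripts of the other genes compared, 16 held a scored window of 60 nt with at least 40 A, 9 of them in 3′ UTRs, 6 in coding regions and 1 in a 5′ UTR. By icLASER their medians were 0.182 (refolded) and 0.466 (cells), with differences from −0.046 to 0.570, so none was as low as in PABPC1. None reached the in vitro score of PABPC1 either. This set was chosen after the PABPC1 values were seen. The 5′ UTR window was in PABPC4, the close relative of PABPC1, at nucleotides 12 to 71 of its leader with 41 A. There icLASER rose from 0.187 in refolded RNA to 0.757 in cells, higher at 56 nucleotides and lower at none. With icSHAPE it was 0.508 and 0.494. In the 30 nt printed above, which hold 22 A, icLASER went from 0.329 to 0.967. The mean RPKM of this PABPC4 transcript was 9.11, against 110.4 for that of PABPC1, and the part of depth in the contrast was not tested.

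TPT1 had the most similar profiles in vitro and in vivo of the 30 members, with a Pearson correlation across positions of 0.767 in icSHAPE and 0.827 in icLASER. Its regions were close in both conditions. In icSHAPE the 5′ UTR had 0.248 in vitro and 0.249 in vivo, the coding region 0.153 and 0.179, and the 3′ UTR 0.047 and 0.090. In icLASER the 5′ UTR had 0.255 and 0.207, the coding region 0.191 and 0.188, and the 3′ UTR 0.052 and 0.126. The rise in its 3′ UTR was thus the one TPT1 value past the limit. Its reagents also resembled each other the most in vivo, with a correlation of 0.601. The coding region of this transcript began 36 nt inside that of a longer form.

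Over all 30 members the median correlation between conditions was 0.614 in icSHAPE and 0.635 in icLASER, beside 0.504 and 0.595 in the other coding genes. EIF1 (0.754) and RACK1 (0.718) followed TPT1 in icSHAPE, and NACA and then EIF1 (0.788) in icLASER. The lowest correlation in both was that of EEF1A1 (0.343 and 0.309), in the isoform of 992 nt leader. Between reagents the median was 0.436 in vitro and 0.434 in vivo, beside 0.370 and 0.364. Members had a median RPKM of 34.8 in these transcripts and the others 17.7. Positions of a transcript share libraries and sequence, and no p-value is given. Positions scoring at least 0.5 with both reagents made up 4.19% of member positions in vivo, 2.99 times the product of the separate shares, beside 2.71 times in the other coding genes.

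The start codons of members stood out at the nucleotide just before the A, which had a mean icSHAPE score of 0.619 in vitro and 0.731 in vivo (28 members). The other coding genes had 0.542 and 0.615 (1110 and 1108 genes). In the sequences of EEF1A1 and EEF2 printed above this nucleotide scored 1 in both conditions with icSHAPE, and in EEF1G it scored 0.293 and 0.252. The transcripts of these printed sequences were placed from their scores, so their positions are inferred, and they are not in the averages. With icLASER the nucleotide before the A had 0.501 and 0.420, and the G of the start codon had the highest mean of the 3 bases. The G averaged 0.650 in vitro and 0.486 in vivo in 29 members, against a mean of 0.269 and 0.185 over the flanking 100 nt on each side, and 0.489 and 0.349 in 1121 other coding genes. Of the printed sequences, EEF1A1 had 0.075 and 0.058 at the G, below 0.097 and 0.118 at its A. EEF2 had 0.162 and 0.058 at the G and 0.168 and 0.024 at the A, and EEF1G 0.354 and 0.191 at the G and 0.095 and 0.062 at the A. The A of the start codon averaged 0.255 in vitro and 0.404 in vivo with icSHAPE in members, and 0.276 and 0.299 in the others. Among the 10 members whose transcript had the longest coding region, 9 of them with a score there, the nucleotide before the A had 0.610 and 0.762 with icSHAPE and the G had 0.531 and 0.509 with icLASER, so in these the G hardly differed between conditions. The A of these members had 0.240 and 0.289 with icSHAPE, a smaller rise than in all members.

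At the stop codon the middle base of members had an icLASER score of 0.171 in vitro and 0.347 in vivo (28 members), whereas in the other coding genes it had 0.313 and 0.344 (1123 and 1125 genes). With icSHAPE it had 0.174 and 0.290 in members and 0.204 and 0.289 in the others. The icLASER mean of the flanking 100 nt on each side also rose, from 0.1235 to 0.1999 in members. In the others it went from 0.1302 to 0.1744. The codon values depended on the register of the scores. A shift by 1 nucleotide moves the icSHAPE peak onto the A of the start codon.

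Within the coding region, the stretches that fell most in both reagents were the 3 printed above, chosen by these values among 17503 windows of 30 nt with the same sign in both reagents. In EIF3C, from nucleotide 259 of the coding region, icSHAPE went from 0.734 in vitro to 0.301 in vivo and icLASER from 0.680 to 0.225, and 18 of the 30 nucleotides fell by at least 0.2 with both. In GSPT1, from nucleotide 65, icSHAPE went from 0.742 to 0.270 and icLASER from 0.924 to 0.589. In PABPC4, from nucleotide 756, icSHAPE went from 0.533 to 0.212 and icLASER from 0.690 to 0.244. The GSPT1 and PABPC4 transcripts had a low mean RPKM of 10.6 and 9.11.

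The largest rises in both reagents were in EIF3E, GSPT1 and EIF3C, and the sequences of the latter pair carry capitals at nucleotides that rose by at least 0.2 with both reagents.

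GSPT1 (chr16:11887675-11887704, minus strand, exon 5): GgTaaAacagtaGaagtgggtcgtgcctat

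EIF3C (chr16:28723228-28723257, plus strand, exon 9): aAgcacgacagGaAATCcaaGcgcctggat

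EIF3E, from nucleotide 375 of the coding region, had 0.159 in vitro and 0.444 in vivo with icSHAPE and 0.107 and 0.387 with icLASER. GSPT1, from nucleotide 409, had 0.079 and 0.402 with icSHAPE and 0.091 and 0.214 with icLASER. EIF3C, from nucleotide 811, had 0.131 and 0.228 with icSHAPE and 0.222 and 0.561 with icLASER. Low and high stretches thus lay within the same mRNAs, GSPT1 and EIF3C.

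Of 37 other genes of translation and its regulation, 27 were in a profile and 11 could be compared by region. The highest were EIF4EBP1, an inhibitor of the cap-binding subunit, at a mean RPKM of 134, EEF1E1, an aminoacyl-tRNA synthetase cofactor, at 83.8, and EIF1B, a relative of EIF1, at 81.4. In the icLASER 5′ UTR 5 of 9 (55.6%) were lower by the limit and 1 was higher, near the shares of 45.8% and 8.14% in the other coding genes, with a median difference of −0.050. In the icLASER 3′ UTR 5 of 11 (45.5%) were higher, beside 53.9%, and none was lower, with a median of 0.028. Both medians lay nearer to those of the other coding genes than to those of the members.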

How the data were processed

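The authors aligned reads to the Ensembl release 88 transcriptome (GRCh38) and scored positions with the icSHAPE pipeline on pooled libraries, without its minimum coverage filters. The submitters' processing notes name Trimmomatic and Bowtie2. The deposited RPKM values are normalized by the authors for transcript length and library size. The deposited enrichment scores, which the authors computed for each reagent over its control, run from 0 to 1, and 16 values outside that range (13 and 3 in the icSHAPE profiles) were set to missing. Read counts were not used here, so depth is unknown and no interval is given.

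Sequences and regions were taken from GENCODE release 44 where identifier and length matched. Region means used at least 20 positions scored in both conditions, correlations at least 100, RPKM ratios a pseudocount of 1, with Python 3.11.15 and numpy 2.4.6. Differences of 0.05 and of 2-fold were the limits. Region means were tested on simulated differences. In a check of placement by scores, 482 of 500 transcripts of known position were placed correctly and 1 wrongly.

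The members and lists were chosen with earlier results of these data known. The named genes are PABPC1, TPT1, those with extreme RPKM (5 highest, 3 lowest, and the highest of each role), the 3 highest and lowest differences by region and reagent, those with the extreme windows, the 3 highest other pathway genes, and members in no profile. Values of further members were added for their role groups. Alternatives covered the averaging, scale, bases, register, position minimum, limits, transcript choice and background.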

Additional observations from a re-analysis of the deposited data

How the results depend on the processing

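No paired analysis was possible because each profile pools its libraries, and for the same reason leaving out single libraries was not run.

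Of the values set for comparison, 159 alternatives stayed within 0.02 of the score (0.1 in log2 RPKM, 0.05 in correlation, 1.5 times for counts) and 40 moved. The counts below are of members alone, without the share of the other coding genes at each setting. With the median over positions, the members' median differences were 0.000 in icSHAPE coding regions and 3′ UTRs, 0.000 in icLASER 5′ UTRs (and 0.000 relative to other genes) and 0.036 in icLASER 3′ UTRs. The counts past the limit were then 1, 0 and 0 higher (icSHAPE 5′ UTR, coding region, 3′ UTR), 7 lower (icLASER 5′ UTR) and 1 and 8 higher (icLASER coding region, 3′ UTR). With each profile divided by its own mean, icSHAPE medians were −0.026 (5′ UTR) and −0.008 (coding region), with 3 and 0 members higher, and 10 members were lower in both reagents in the 5′ UTR. With A and G alone, 7 members were higher in icSHAPE in the coding region and 7 in the 3′ UTR, 13 lower in the icLASER 5′ UTR, and the gap to other genes there was −0.022. With at least 50 positions, 4 members were higher in the icSHAPE 5′ UTR, and in the icLASER 5′ UTR 11 were lower, with a median of −0.071 and a gap of −0.027. With a limit of 0.03, the counts higher were 11, 10 and 12 (icSHAPE, in the same order of regions) and 6 (icLASER coding region). With a limit of 0.1 they were 3, 0 and 0, then 1 in the icLASER coding region and 8 in the icLASER 3′ UTR, with 14 lower in the icLASER 5′ UTR. Averaging all matched transcripts gave 6 higher in the icLASER coding region, and placing transcripts by scores, added after the data were seen, gave 6 higher in the icSHAPE 3′ UTR. In the transcripts used for regions, the median log2 RPKM difference in icLASER was 0.27. With a 40 nt window, the PABPC1 icSHAPE difference was 0.058. Spearman's rho between conditions was 0.533 (icSHAPE) and 0.528 (icLASER).

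With each score moved 1 nucleotide downstream, 9 of the 24 codon values relative to their flanks reversed, 13 moved and 2 did not move. At the start codon the second base had 0.153 in icSHAPE in vivo, the last base −0.029 and −0.099 (icSHAPE in vitro, in vivo) and −0.051 and −0.025 (icLASER), and the A 0.234 and 0.235 (icLASER). At the stop codon the middle base had −0.006 (icSHAPE in vivo) and −0.025 (icLASER in vivo). Among the comparisons run, the icLASER 5′ UTR median of the members was at or below 0 in each alternative. The unknown depth limits every low-RPKM member.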
